A study of Homo sapiens with 23 samples.

Results

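Sites bound by both YY1 and OCT4 in SCi-NCCITs were taken as the OCT4 peaks of cells without doxycycline that shared at least 1 bp with a YY1 peak in both YY1 libraries without doxycycline, leaving out peaks on the 751 de-repressed SVAs listed by the study. Of 50775 OCT4 peaks, 14273 overlapped YY1 in replicate 1, 17940 in replicate 2 and 12359 in both. After 30 peaks on listed SVAs were left out, 12329 co-bound sites remained, 24.3% of the OCT4 list. The members were therefore chosen by the measured peaks, and their YY1 and OCT4 values without doxycycline are given as a description with no test. At the edge of the rule, 60 members overlapped YY1 by at most 10 bp in 1 of the replicates, and 42 other OCT4 peaks missed it by at most 10 bp. Peaks that overlap come from separate cell populations, so the lists do not show both factors on the same DNA molecule.

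NCCIT is a human embryonal carcinoma cell line with pluripotent features. SCi-NCCITs are NCCITs that carry a tetracycline-inducible dCas9-KRAB, built from stable clones, and 2 sgRNAs against SVAs expressed constitutively, both on piggyBac transposons. All SCi-NCCIT libraries, with and without doxycycline, carry these elements, and the treated cells received 2 µg/mL doxycycline for 72 hours. OCT4 was measured in 1 library of each condition, YY1 in 2 of each, H3K9me3 in 2 of each plus 1 of NCCITs without dCas9-KRAB, and RNA in 3 of each. No library came from doxycycline-treated cells without dCas9-KRAB or the sgRNAs, so the effects of doxycycline and of dCas9-KRAB cannot be told apart. All 10 pluripotency markers examined were detected in RNA without doxycycline, with medians of 35.8 to 352 TPM (SOX2 the highest), while the mesodermal TBXT and the trophoblast gene CGB5 had a median of 0 TPM, and HAND1 (126 TPM) and NES (101 TPM) were also expressed.

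YY1 is a ubiquitous zinc finger factor that binds a core containing ATGGC, often just downstream of the start of housekeeping genes, and can bridge enhancers and promoters. OCT4, encoded by POU5F1, is a POU domain factor of pluripotent cells that binds the octamer ATGCAAAT, often beside SOX2 on a composite SOX-OCT element in distal enhancers. dCas9-KRAB brings the machinery that deposits H3K9me3, a mark of heterochromatin, to the DNA its sgRNAs match. SVAs are composite retrotransposons whose SINE-R part derives from an endogenous HERV-K retrovirus, and the study notes that the sgRNAs also match LTR5Hs, the long terminal repeat of young HERV-K copies.

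Sequences at 3 kinds of co-bound site are shown in hg19, plus strand, for the motifs they hold. First come, among distal sites without the SVA words described further on, the 3 with the highest OCT4 fold enrichment that hold an octamer or SOX-OCT core within 60 bp of the summit, with ATGCAAAT, TTGTNATGC and the YY1 core AANATGGC in capitals on either strand, each line named by the nearest gene.
NMNAT2, chr1:183372851-183372971: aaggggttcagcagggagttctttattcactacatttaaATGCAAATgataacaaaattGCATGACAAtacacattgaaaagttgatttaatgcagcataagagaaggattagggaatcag
ENSG00000187472, chr6:99084951-99085071: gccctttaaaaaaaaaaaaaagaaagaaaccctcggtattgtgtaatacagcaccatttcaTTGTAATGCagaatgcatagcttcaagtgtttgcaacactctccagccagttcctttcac
TCP10L3, chr6:167854600-167854720: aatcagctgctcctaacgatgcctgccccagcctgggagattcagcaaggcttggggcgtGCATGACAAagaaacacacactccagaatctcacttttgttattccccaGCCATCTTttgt

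Windows with both kinds of motif were found as well, and the next pair come from the distal sites without SVA words not shown already. Of these, sites were taken that hold an octamer or SOX-OCT core and a YY1 core within 75 bp of the OCT4 summit. The pair has the highest OCT4 fold enrichment among them, within the limits on chromosome and exons given above. In the second of them the composite element and the octamer form 1 run, TTGTTATGCAAAT, and the YY1 core follows downstream.
SNORD42, chr22:28550197-28550347: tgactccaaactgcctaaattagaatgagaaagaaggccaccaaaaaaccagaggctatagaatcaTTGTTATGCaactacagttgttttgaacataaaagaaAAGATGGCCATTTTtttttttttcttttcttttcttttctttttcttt
ENSG00000289587, chr17:64470490-64470640: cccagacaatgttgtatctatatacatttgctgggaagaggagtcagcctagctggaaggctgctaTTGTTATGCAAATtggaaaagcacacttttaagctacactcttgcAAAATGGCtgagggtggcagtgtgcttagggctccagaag

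The promoter set was taken around YY1 summits, not OCT4 summits, and shows the long YY1 core AAGATGGCG. It is in capitals in the 30 bases around it at the 3 promoter sites with the highest mean YY1 fold enrichment and 1 such core in the window. At TOR1A and ENSG00000268536 the stretch lies outside the OCT4 peak.
TOR1A, chr9:132586488-132586517: cgccggcggcCGCCATCTTtgttcggtaca
MADCAM1-AS1, chr19:507494-507523: gccctcagcgAAGATGGCGgcagtggagaa
ENSG00000268536, chr19:4791747-4791776: aggagaccctAAGATGGCGgcgagggggac

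Co-bound sites lay near gene starts far more often than OCT4 peaks without YY1. The latter, here and below, are peaks off the listed SVAs that overlapped no YY1 peak in either replicate without doxycycline. In the whole list, 7486 OCT4 peaks off the listed SVAs had YY1 in 1 replicate only and are in neither group. Of the 12224 members on assembled chromosomes, which the rest of the description covers, 4996 (40.9%, 95% Wilson interval 40.0% to 41.7%) had their OCT4 summit within 1000 bp of an annotated transcription start site (TSS), against 1970 of 30850 OCT4 peaks without YY1 (6.39%). A further 5.90% of members lay in exons, 32.0% in introns and 21.2% between genes. The median distance from the OCT4 summit to a TSS was 2948 bp at co-bound sites and 18772 bp at OCT4 peaks without YY1. These shares were set by the peaks that chose the members and carry no test, and the interval covers counting error only. The remaining 105 members lay on 18 other contigs.

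The share of OCT4 peaks that were co-bound differed between chromosomes. It was highest on chromosome Y, with 14 of 32 peaks, of which 7.14% were promoter sites. On chromosome 19, 332 of 820 OCT4 peaks (40.5%) were co-bound and 57.2% of those were promoter sites, and on chromosome X, the lowest, 336 of 2008 (16.7%) were co-bound and 24.4% of those were promoter sites. Many promoter sites served several genes: 1772 had at least 2 gene starts within 1000 bp and 1568 had starts on both strands. Conversely, 643 genes had more than 1 promoter site.

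Both factors were centred just downstream of the start. At the 3673 promoter sites whose nearest TSS belonged to a protein-coding gene, the OCT4 summit lay at a median of +68 bp (interquartile range -98 to 281 bp) and was downstream of the TSS at 61.6%. The YY1 summit lay at a median of +66 bp in replicate 1 and +65 bp in replicate 2, downstream at 68.2% and 66.6%. The long YY1 core AAGATGGCG, searched within 100 bp of the YY1 summit of replicate 2, was on the strand of the gene in 234 copies, with a median position of +62 bp and 87.6% downstream. The 79 copies on the other strand were spread evenly around the start, with a median of 0 bp and 49.4% downstream.

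Fold enrichment, the ratio given with each peak, ran in opposite directions for the 2 factors. OCT4 had a median fold of 4.98 at promoter members and 6.24 at distal members, close to the 4.80 and 5.82 of OCT4 peaks without YY1. YY1 was higher at promoter members, with medians of 9.52 and 9.28 in replicates 1 and 2, than at distal members, with 6.36 and 7.80. OCT4 exceeded YY1 of replicate 1 at 21.8% of promoter and 51.4% of distal members, and YY1 of replicate 2 at 22.8% and 44.4%. Across the 12224 sites the folds of OCT4 and YY1 had a Spearman's rho of -0.11 with replicate 1 and -0.01 with replicate 2, whereas the YY1 replicates had a rho of 0.77. Sites share the library and neighbouring peaks, so these values describe the lists only.

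The strongest sites were mostly high for 1 factor. At distal sites the highest OCT4 folds were 118.90 in an intron near NMNAT2, an enzyme of NAD synthesis in neurons, 89.58 near ENSG00000187472, 83.70 near TCP10L3, 83.59 near DENND1B and 81.31 near IGKV1OR2-2. YY1 of replicates 1 and 2 at these was 3.6 and 4.32, 4.80 and 6.04, 12.32 and 6.87, 3.56 and 6.92, and 67.17 and 70.33, in the same order. The IGKV1OR2-2 site was the exception, and it was 1 of 10 members within a stretch of chromosome 2 from 92269129 to 92326165, all of which carried an H3K9me3 peak in each of the 4 SCi-NCCIT libraries but not in the NCCIT library. Distal members were crowded at 11 genes with at least 10 each (166 sites in all), led by KSR1P1 with 27 and RNU6-845P with 21. Why members crowd there, and whether the IGKV1OR2-2 peaks arise from this genomic place, was not tested.

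Among promoter sites the highest OCT4 folds were 79.38 at MIR5188, 76.48 at ENSG00000267146, 74.66 at ENSG00000274021, 63.85 at U3, a small nucleolar RNA gene, and 58.98 at STAT3, the transcription factor of LIF and IL-6 signalling. YY1 at MIR5188 was also high, 136.15 and 112.80, and this site carried an H3K9me3 peak in all 4 SCi-NCCIT libraries but not in NCCITs. Whether its peaks arise from this genomic place was not tested. At the others YY1 ran from 2.88 to 19.90. The promoter sites shown for their YY1 core, which have the highest mean YY1 among those outside chromosome 8 with 1 such core, had weak OCT4. At TOR1A, which encodes torsin-1A of the endoplasmic reticulum, YY1 was 151.83 and 144.15 while OCT4 was 4.56, and at MADCAM1-AS1 the values were 129.99, 124.86 and 3.56. Their OCT4 summits lay 427 to 779 bp from the YY1 summit at MADCAM1-AS1 and ENSG00000268536, and 270 to 285 bp at TOR1A.

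Summit distances were measured only to YY1 peaks that overlap the OCT4 peak, so the rule and the peak widths bound them. The OCT4 peaks of members had a median width of 460 bp. The median distance between the OCT4 summit and the nearest YY1 summit was 173 bp (interquartile range 73 to 364 bp) in replicate 1 and 147 bp (64 to 309 bp) in replicate 2, a mean of 159.5 ± 17.7 bp (SD, n = 2 YY1 libraries). For comparison, the YY1 summits of the replicates lay a median of 50 bp apart at the same sites. Distances were shorter at distal members (151 and 135 bp) than at promoter members (208 and 168 bp) in both replicates. The share within 50 bp was 17.9% in replicate 1 and 20.4% in replicate 2. The plot of cumulative distance shows the order of the groups.

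**Figure D1:**
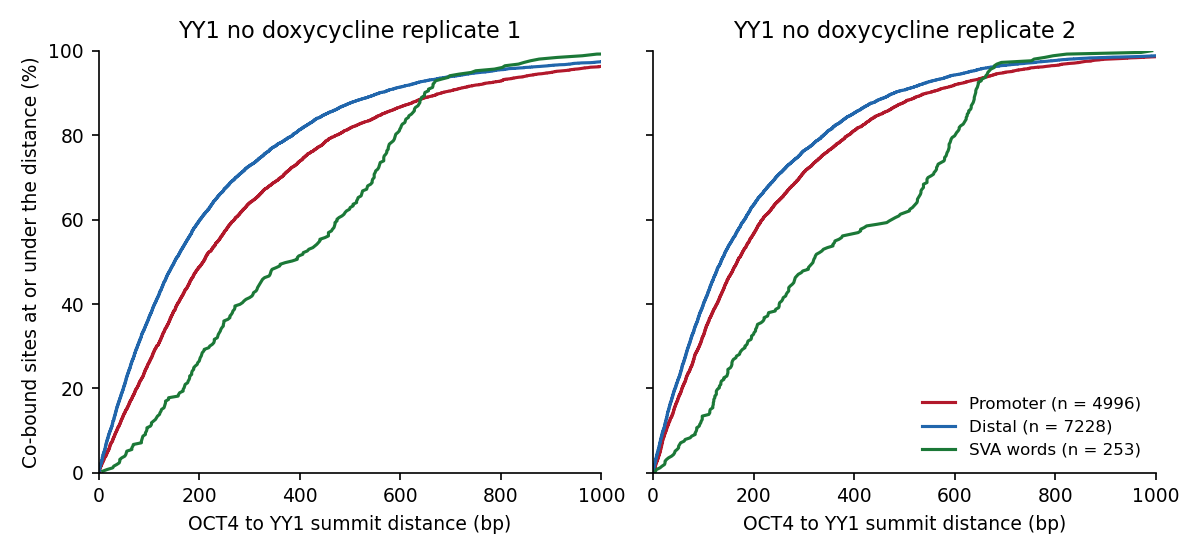
Share of co-bound sites (y axis, %) whose OCT4 and nearest YY1 summits lie at or under a distance (x axis, bp, cut at 1000 bp), for promoter, distal and SVA-word sites, against each YY1 library without doxycycline. Distal sites (median 151 and 135 bp) reach each share at shorter distances than promoter sites (208 and 168 bp), and the 253 sites with SVA words, which are members of the other groups too, have medians of 385 and 319 bp.

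Motifs told the 2 factors apart more than position did. Motifs were searched on both strands of the 201 bp around a summit, and a match describes letters only, not binding. The octamer ATGCAAAT was near the OCT4 summit of 8.43% of distal and 1.58% of promoter members, against 12.8% and 6.65% of OCT4 peaks without YY1, 10.2% of all OCT4 peaks and 0.798% of windows at protein-coding gene starts. The SOX-OCT core TTGTNATGC, which shares its ATGC with the octamer, was at 3.03% of distal and 0.861% of promoter members, against 10.9% and 5.43% without YY1 and 7.65% of all OCT4 peaks. Members therefore held the OCT4 motifs less often than the other OCT4 peaks in both positions.

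The YY1 core AANATGGC showed the reverse. It was near the OCT4 summit of 9.60% of distal and 6.65% of promoter members, against 2.32% and 1.22% of OCT4 peaks without YY1, 4.13% of all OCT4 peaks and 5.83% of gene starts. Around the YY1 summit of replicate 2 it rose to 25.2% of distal and 23.7% of promoter members, at a median of 16.5 and 11.5 bp from the summit. The longer AAGATGGCG, which contains AANATGGC, was at 7.37% of promoter and 2.27% of distal members there. Around the OCT4 summit of promoter members this longer core was at 2%, against 2.03% of gene starts. Promoter members were GC-rich at the OCT4 summit, with a median of 68.7% G and C and 20 CpGs in 201 bp, against 50.3% and 5 at promoter peaks without YY1. At distal members the medians were 47.3% and 3, against 40.8% and 1.

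With doxycycline, OCT4 was called at 1 member in 3 and YY1 at nearly all. An OCT4 peak with doxycycline overlapped 33.4% of the 12329 members, against 40.1% of all OCT4 peaks without doxycycline. Among promoter members 584 of 4996 (11.7%, interval 10.8% to 12.6%) and among distal members 3441 of 7228 (47.6%, 46.5% to 48.8%) had such a peak, compared with 24.6% and 43.2% of promoter and distal OCT4 peaks without YY1. OCT4 had 1 library in each condition, and the doxycycline list held 23352 peaks against 50775, so a call lost at a site cannot be told apart from a list with fewer calls throughout. Reads per library are not part of the peak lists, and their depth is unknown.

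Retention followed the height of the OCT4 peak. In quartiles of the OCT4 fold over all peaks, with limits of 4.57, 5.73 and 8.31, retention at promoter members was 1.68%, 5.33%, 14.3% and 75.6% from the lowest to the highest quartile, and at distal members it was 13.2%, 15.3%, 42.6% and 91.2%. OCT4 peaks without YY1 had 5.87%, 12.6%, 36.3% and 89.2% at promoters and 11.6%, 21.2%, 46.7% and 88.8% at distal places. Promoter members thus lay below distal members and below both kinds of OCT4 peak without YY1 in every quartile. Distal members lay above distal peaks without YY1 in the lowest and highest quartiles and below them in the middle pair. Where a peak was kept, the OCT4 fold with doxycycline divided by that without had a median log2 of -0.63, with -0.73 at promoter and -0.60 at distal members.

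**Figure D2:**
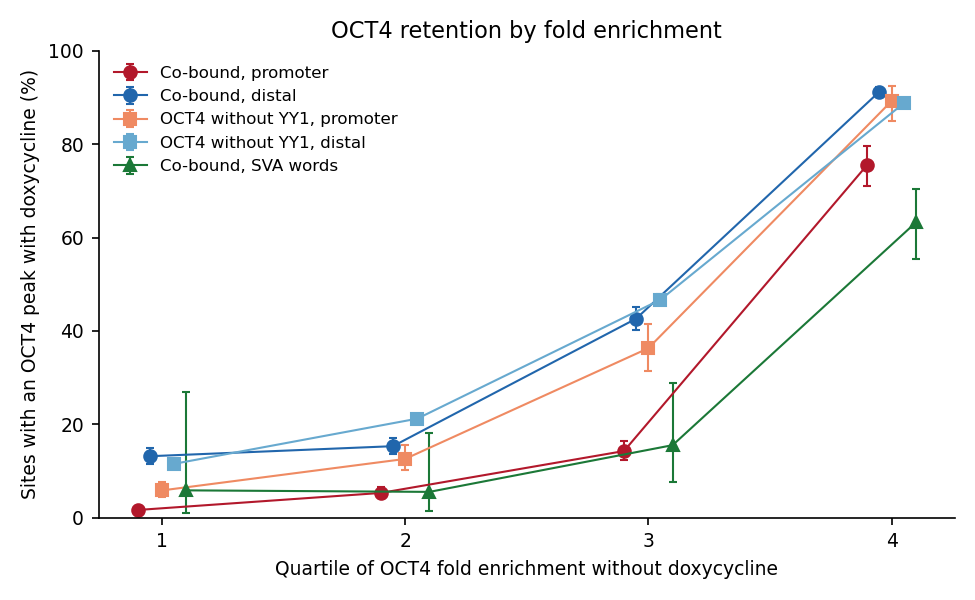
Share of OCT4 sites that overlap an OCT4 peak with doxycycline (y axis, %, bars are 95% Wilson intervals) by quartile of their OCT4 fold without doxycycline (x axis, 1 is the lowest), with 1 library in each condition. In the highest quartile 91.2% of distal and 75.6% of promoter co-bound sites kept a peak, and 63.2% of the 155 sites with SVA words in that quartile did.

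Sites that kept OCT4 held its motifs more often. The octamer was at 14% of distal members with an OCT4 peak under doxycycline and at 3.38% of those without, and the SOX-OCT core at 5.70% and 0.607%. At promoter members the core was at 4.79% and 0.340%. The YY1 core did not follow this order, with 9.30% and 9.88% of distal members. Sites were not matched on OCT4 fold, which retention followed, so whether motifs go with retention apart from peak height was not tested. Sites already chosen for a high fold and a motif are examples of the first group. The NMNAT2 site fell from an OCT4 fold of 118.90 to 82.14, the ENSG00000187472 site from 89.58 to 64.32 and the TCP10L3 site from 83.70 to 57.70, each with a peak in both conditions.

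YY1 peaks with doxycycline overlapped 94.6% of members in replicate 1 and 97.8% in replicate 2 (mean 96.2% ± 2.26, SD, n = 2 libraries), and 93.4% in both. Of all OCT4 peaks, 32.0% and 41.7% overlapped these lists, and of all YY1 peaks without doxycycline 76.7% (replicate 1) and 67.5% (replicate 2) overlapped a YY1 peak in both doxycycline libraries. That background includes peaks of 1 replicate only, which the rule leaves out. Among YY1 peaks shared by both replicates, 94.5% and 93.5% at members had a peak in both doxycycline libraries, and 93.6% and 93.1% of those without an OCT4 peak did. The YY1 fold with doxycycline over that without had a median log2 of 0.20 and 0.28 at members. The YY1 lists with doxycycline were the larger ones (82005 and 115673 peaks against 56370 and 76098).

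The usual outcome at a promoter member was therefore YY1 in both doxycycline libraries and no OCT4 call, seen at 85.2%. At distal members this was 47.5%, and 43.9% kept OCT4 and both YY1 calls. No peak of either factor remained at 94 members (0.769%), and 29 kept OCT4 without YY1.

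H3K9me3 was not used by the rule. Of all 12329 members, 968 and 919 overlapped an H3K9me3 peak in the libraries without doxycycline and 942 and 1052 with it. The groups overlap, and the difference of 53.5 sites had an exact permutation p of 0.67 (two-sided, 2 against 2 libraries, where the smallest possible p is 0.33). The difference was -62 sites with members extended by 500 bp on each side and -1.5 sites without doxycycline replicate 2, so no direction is given for the whole set. On assembled chromosomes, promoter members carried the mark at 48 to 78 of 4996 sites in the 4 libraries and distal members at 777 to 904 of 7228. As shares, promoter members had it at 0.961% to 1.56%, against 2.64% to 4.01% of promoter OCT4 peaks without YY1, and distal members at 10.75% to 12.5%, against 7.735% to 11.8%. The difference between these kinds of site was not tested.

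A small group of members moved apart from the rest. Members were searched for 20-base words found in at least 20 of the listed SVAs and at most 5000 times in the genome. The words come from any part of the SVAs. The sgRNA sequences were not searched, so whether sites with such words hold an sgRNA match was not tested. Of the 12224 sites, 253 (2.07%) held at least 10 such words, 39 held 1 to 9, and the others held none. The limit of 10 was set after seeing these counts. Only 1 of the 253 lay within 1000 bp of a listed SVA and 4 within 10000 bp. Which repeats these sites belong to was not tested, since no repeat annotation was used here, and the study's list is itself a subset of annotated SVAs.

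Sites with SVA words were distal, wide and strong for OCT4. Of the 253, 51.8% lay in introns, 39.9% between genes and 4.74% at promoters, with a median peak width of 847 bp against 457 bp at the other members. The median OCT4 fold was 10.8, and YY1 had 6.4 and 8.85. Their summits were farther apart, at 385 and 319 bp. The octamer was near the OCT4 summit of 1 of the 253 sites and the YY1 core AANATGGC of 13 (5.14%), fewer than at distal members as a whole.

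H3K9me3 peaks overlapped 15 of these 253 sites in NCCITs, 52 and 44 in SCi-NCCITs without doxycycline and 195 and 203 with it. The counts went from 48.0 ± 5.66 to 199 ± 5.66 (mean ± SD, n = 2 libraries each), and the libraries of the 2 conditions did not overlap. At the other 11971 members the counts were 576 in NCCITs, 823 and 783 without doxycycline and 659 and 761 with it, which do not overlap either, in the other direction. A peak in both doxycycline libraries and in neither without it appeared at 180 members (1.47%, against 0.815% of all OCT4 peaks), of which 141 were sites with SVA words (55.7% of the 253). Of the 39 other gained sites, 30 (76.9%) had an SVA word within 1000 bp, as did 38 of the 11932 sites that did not gain the mark (0.319%). The group was formed after seeing the data, so its gain is given without a test.

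OCT4 kept a peak at 108 of these 253 sites (42.7%), above the 32.7% of the other members, and most of the 253 were in the highest OCT4 quartile. Within that quartile, 63.2% of 155 sites kept OCT4, below the 75.6% and 91.2% of promoter and distal members. YY1 was kept at 81.8% and 83.4%, below the 94.9% and 98.1% of the other members. Where it was kept in that quartile, the median log2 ratio of the OCT4 fold was -1.36 (98 sites), against -0.71 at the other members (2516 sites). The YY1 ratio, 0.20 and 0.28 over all members, was -0.23 and -0.32. The site in an intron of PROM1 went from an OCT4 fold of 53.62 to 6.65, the one in an intron of GALNT8 from 51.00 to 11.53 and the one in an intron of ARMT1 from 21.91 to 4.97, and all 3 gained H3K9me3. These 3 were chosen after their values were seen.

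At 34 members the mark was gained and no YY1 or OCT4 peak remained, 15 of them with SVA words. The 6 with the highest OCT4 fold were near PNISR (19.95), ENSG00000287839 (19.48), RPUSD3 (17.46), RPL23AP26 (17.30), RN7SL316P (15.80) and CTC-550B14.8 (15.80). Sites at RPUSD3 and CTC-550B14.8 held 105 and 195 SVA words, and those of the others held none in the peak itself. PNISR, a splicing-related nuclear protein gene, had 429, 478 and 473 CPM without and 387, 381 and 432 CPM with doxycycline, and RPUSD3, a mitochondrial pseudouridine synthase gene, had 38.5, 40.4 and 38.9 against 41.9, 42.7 and 41.7 CPM. Neither passed the test (edgeR, Benjamini-Hochberg adjusted p = 0.0682 and 0.226).

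Of genes with a co-bound site, 18.9% at promoters and 23.8% nearest to distal sites changed in RNA, against 17.5% of all genes tested and 21.3% of those with at least 5 TPM. RNA was compared by edgeR's quasi-likelihood test on estimated counts summed per gene, at an adjusted p of 0.05 over 16371 genes, and levels are given as CPM, counts scaled to the normalised library size, or, per length, as TPM. Totals on genes were 14683468 to 43443469 counts without doxycycline, lowest in replicate 1, and 44680610 to 47862394 with it. Over all genes 2858 were called (17.5%), 1469 higher (8.97%) and 1389 lower (8.48%). Replicates are not stated to be separate cultures, so p-values measure the spread between these samples, which may be technical, and in bulk RNA fewer cells of a type and less RNA per cell cannot be told apart.

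Of 6346 genes with a promoter member, 4394 were tested, and 342 (7.78%) were higher and 487 (11.1%) lower, 18.9% in all, with a median log2 change of -0.02. Of the 5673 genes nearest to a distal member, 1705 were tested, and 123 (7.21%) were higher and 283 (16.6%) lower, with a median of -0.06. Genes not tested had too few counts to pass the filter or no RNA value at all. Co-bound genes were more expressed, at a median of 24.7 TPM for promoter and 17.6 TPM for distal genes against 11.2 TPM over all tested, and of genes with at least 5 TPM, 10.9% were higher and 10.3% lower. Changes were small, with 44 promoter and 63 distal genes called at a doubling or halving or more. Without the genes nearest to a site with SVA words, 123 of 1627 distal genes (7.56%) were higher and 244 (15%) lower.

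Genes were also counted by whether their site kept OCT4. Those nearest to distal members with an OCT4 peak under doxycycline were called higher in 46 and lower in 150 of 778, and those without in 77 and 133 of 927, a difference that was not tested. These counts depended on single libraries: promoter calls fell from 829 to 396 without no doxycycline replicate 2, 485 without no doxycycline replicate 3, 479 without doxycycline replicate 1 and 387 without doxycycline replicate 2. Distal calls fell from 406 to 247, 269 and 223 without no doxycycline replicates 2 and 3 and doxycycline replicate 2.

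**Figure D3:**
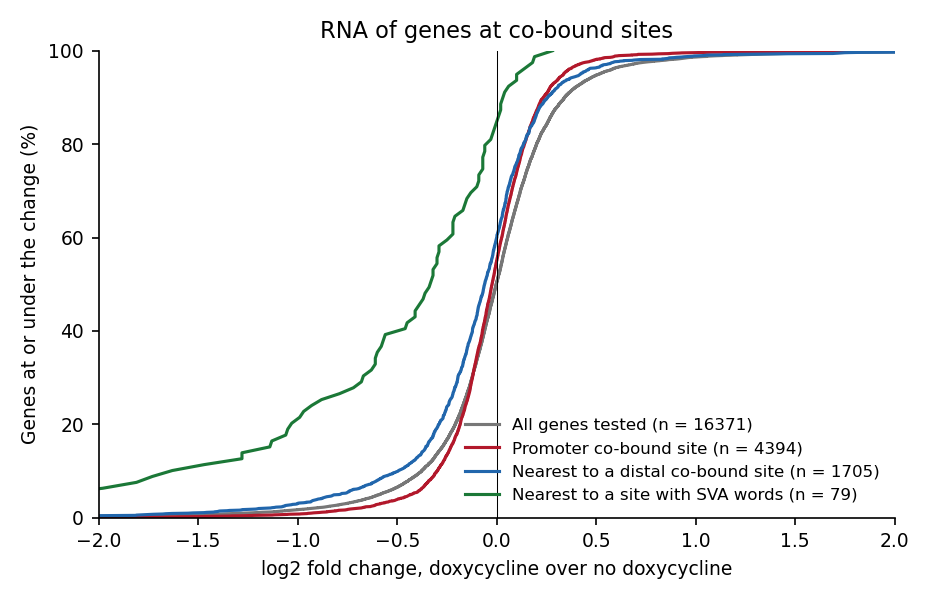
Cumulative share of genes (y axis, %) by log2 change of RNA with doxycycline over without (x axis, cut at -2 and 2), for genes with a promoter member, genes nearest to a distal member, genes nearest to a site with SVA words and all genes tested. The promoter (median -0.02) and distal (-0.06) curves lie close to that of all genes (-0.00), and the 79 genes at SVA-word sites (-0.33) lie to the left.

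The genes of the 2 factors did not pass the test. POU5F1 had 240, 177 and 171 CPM without and 199, 170 and 170 CPM with doxycycline, a log2 change of -0.12 (SE 0.12, edgeR adjusted p = 0.527), and the groups overlap. No co-bound site was assigned to POU5F1. Sites were assigned by 1 start per gene, here at position 31148508 of chromosome 6, so a member at another POU5F1 start could be missed. YY1, whose own promoter is a member (OCT4 fold 4.57, YY1 122.39 and 10.36), had 136, 142 and 141 against 132, 125 and 133 CPM, a log2 change of -0.10 (SE 0.05, edgeR adjusted p = 0.202). Its doxycycline values all lay below the others, yet the difference did not pass the test. The YY1 folds at this promoter belong to different summits, 1866 bp from the OCT4 summit in replicate 1 and -295 bp in replicate 2.

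The largest rises among genes at members were those of ZNF10, SFXN3, OLFML2A, ATP1B2 and GRIA3. ZNF10, a KRAB zinc finger gene, had 10.0, 11.8 and 10.7 CPM without and 362, 374 and 459 CPM with doxycycline, a log2 change of 5.19 (SE 0.12). The KRAB domain of dCas9-KRAB is commonly taken from ZNF10, and reads of the transgene and of the gene cannot be told apart here. SFXN3, a mitochondrial serine transporter gene, rose by 5.17 (SE 0.60) from 0.682, 0.252 and 0.488 to 23.2, 6.03 and 18.5 CPM. ATP1B2, a sodium pump subunit gene, rose by 2.79 (SE 0.11), from 9.68, 9.59 and 12 to 64.3, 79.9 and 75.5 CPM. OLFML2A and the glutamate receptor gene GRIA3 rose by 3.16 and 2.64. All 5 passed at edgeR adjusted p-values of 5.59e-08 to 0.000586, and the groups did not overlap, as was true of 17.4% of all genes tested together with a call. Their sites had OCT4 folds of 3.45 to 5.82, and a doxycycline OCT4 peak was kept at 1 of the 5, that of GRIA3.

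Under the same filter, with its mean of at least 1 CPM, the largest falls were those of INSYN2B (-3.51), ANKDD1B (-2.49), CLEC4D (-2.35), PLAAT4 (-2.25) and ENSG00000286088 (-2.15), with edgeR adjusted p-values of 4.19e-05 to 0.014. These named genes were low, at 0.766 to 5.59 CPM without doxycycline. MLN (-4.22) and PDCL3P4 (-2.27), nearest to members with SVA words, were called lower too but had means under that limit. INSYN2B had 2.59, 2.43 and 1.79 CPM without and 0.267, 0.147 and 0.17 CPM with doxycycline, and CLEC4D, a C-type lectin receptor gene, had 5.59, 5.39 and 3.90 against 1.22, 0.879 and 0.787 CPM. ANKDD1B and PLAAT4 are nearest to members with SVA words that gained H3K9me3. The call at ENSG00000286088 was lost without no doxycycline replicate 2 or without doxycycline replicate 2, with log2 changes between -2.01 and -1.86.

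Genes nearest to a site with SVA words were lower as a group. Of 240 such genes 79 were tested, and 39 (49.4%) were called lower and 0 higher by edgeR (44 and 1 at an unadjusted p under 0.05), against 8.48% and 8.97% of all genes, with a median log2 change of -0.33. DESeq2 called 38 lower and 1 higher. Of the 57 tested genes nearest to a member that gained H3K9me3, 35 (61.4%) were lower and 0 higher by edgeR (41 and 0 unadjusted, 36 and 0 by DESeq2), with a median of -0.58. By distance to the TSS, 27 of 49 genes at 1 to 10 kb were called lower, 12 of 26 at 10 to 50 kb and 0 of 3 beyond. This group was formed after seeing the data and gets no test of its own.

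Several well expressed genes illustrate it, chosen after their values were seen. PRODH, proline dehydrogenase of mitochondria, had 143, 149 and 114 CPM without and 35.4, 31.3 and 36.4 CPM with doxycycline, a log2 change of -1.98 (SE 0.10, edgeR adjusted p = 4.36e-06). ARMT1, a protein carboxyl methyltransferase gene with a site in an intron, had 327, 346 and 314 against 122, 119 and 115 CPM (-1.47, SE 0.06, edgeR adjusted p = 8.55e-07). PROM1, which encodes the surface protein CD133 of stem cells, had 133, 138 and 133 against 53.7, 55.3 and 57.4 CPM (-1.28, SE 0.05, edgeR adjusted p = 8.55e-07). In all 3 genes every doxycycline library lay below every other library, and the site of each gained H3K9me3.

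Other falls were seen at FAM20A (-1.73), a secretory pathway pseudokinase gene, CACNA2D2 (-1.63), a calcium channel subunit gene, SLC25A16 (-1.13), a mitochondrial carrier gene, TCEA1 (-1.05), a transcription elongation factor gene, and BARD1 (-0.72), the partner of BRCA1, all called by edgeR at adjusted p-values of 1.44e-06 to 0.000507. Others near such sites did not pass: KLRG2 had 69.2, 63.1 and 61.7 CPM without and 60, 61.9 and 60.4 CPM with doxycycline, and GALNT8 had 3.41, 4.48 and 3.46 against 3.75, 3.79 and 3.15 CPM, although the sites of both gained the mark.

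Core pluripotency genes had promoter members at 10 of 35 (28.6%), against 21.8% of all protein-coding genes. Of the 9 tested, edgeR called 7 lower and 0 higher (8 and 0 at an unadjusted p under 0.05, 7 and 0 by DESeq2), with a median log2 change of -0.40 against -0.00 over all genes. The whole list, with or without a promoter member, had 1 higher and 13 lower of 33 tested. TDGF1 (-1.13), NANOG (-0.57) and GDF3 (-0.34), which have no promoter member, were called lower by edgeR too. Of these, NANOG and GDF3 were nearest to a distal member and TDGF1 was not. In this and the following lists, unadjusted counts are at the same limit. PRDM14, a germline and naive pluripotency regulator, had 80.2, 73.7 and 59.6 CPM without and 47.9, 45.5 and 46.4 CPM with doxycycline (log2 -0.60, SE 0.10, edgeR adjusted p = 0.00342), and its promoter sites (OCT4 fold 8.97 and 4.10) had no OCT4 peak with doxycycline. KLF4 fell by 0.37 (edgeR adjusted p = 0.0061), while DPPA4, with 302, 309 and 297 against 321, 302 and 315 CPM, did not pass. SOX2, the partner of OCT4, had 5 members. Its promoter site had an OCT4 fold of 5.98 and 3.17 without and with doxycycline, and a site in an intron of the surrounding gene, 4226 bp from the SOX2 start, had 68.47 and 45.42. SOX2 RNA changed by -0.19 (SE 0.08, edgeR adjusted p = 0.132), with groups that overlap.

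Germ layer transcription factors had promoter members at 6 of 35 genes (17.1%), of which 5 were tested, with 1 higher and 0 lower by edgeR (2 and 1 unadjusted, 2 and 0 by DESeq2) and a median of 0.35. With or without a member, 5 were higher and 0 lower of 28 tested in this list. FOXC1, a mesenchymal forkhead factor, rose from 128, 116 and 144 to 256, 264 and 273 CPM (log2 1.03, SE 0.08, edgeR adjusted p = 4.49e-05), and the groups did not overlap. TBXT, the mesoderm factor brachyury, had an OCT4 fold of 11.82 at its promoter, kept at 10.63 with doxycycline, and a median of 0 TPM in RNA. EOMES (promoter fold 5.28) and MESP1 (4.79) were below 1.1 CPM in every library and did not pass.

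Genes of WNT, NODAL and FGF signalling had promoter members at 17 of 36 (47.2%), all tested, with 2 higher and 1 lower and a median of -0.03. With or without a member, 2 were higher and 2 lower of 35 tested in this list. AXIN2, a feedback inhibitor of WNT signalling, was the lower one (log2 -0.27, edgeR adjusted p = 0.0411). This call was lost without any of 5 of the 6 libraries, with values from -0.33 to -0.20. The AXIN2 member with the highest OCT4 fold, 18.67, lay outside the gene, 11437 bp from its start. SPRY2, an inhibitor of FGF signalling (promoter OCT4 fold 10.39), and the BMP targets ID1 (8.53) and ID2 (7.80) did not pass. Of YY1 partners and chromatin factors, 15 of 29 genes (51.7%) had a promoter member, with 0 higher and 6 lower of 15 tested by edgeR (0 and 8 unadjusted, 0 and 7 by DESeq2) and a median of -0.18. The list as a whole, with or without a member, had 1 higher and 9 lower of 29 tested. PHC1, a Polycomb subunit gene, fell by 0.28 (edgeR adjusted p = 0.0115). Its member with the highest OCT4 fold, 38.94, lay outside the gene, 1811 bp from its start. INO80, the ATPase of the INO80 remodeller that binds YY1, fell by 0.33 (edgeR adjusted p = 0.0262). Without doxycycline replicate 2 neither call held, and that of INO80 was lost without no doxycycline replicate 3 as well. SMC3 of cohesin, with a promoter YY1 fold of 68.84 and 75.56, and the helicase gene RUVBL1 did not pass.

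Of the housekeeping lists, the ribosomal and splicing ones had promoter members at 48.7% to 53.4% of genes. Cytosolic ribosomal protein genes had promoter members at 47 of 88 (53.4%), with 0 higher and 1 lower of 47 tested by edgeR (1 and 1 unadjusted, 0 and 1 by DESeq2) and a median of -0.00. With or without a member, 2 were higher and 1 lower of 85 tested. RPL37, RPS14, RPL13 and RPS7 had OCT4 folds of 8.15 to 9.83 and RNA changes of -0.07 to 0.08 that did not pass. Mitochondrial ribosomal protein genes had them at 38 of 78 (48.7%), with 3 higher and 0 lower of 38 by edgeR (13 and 2 unadjusted, 3 and 0 by DESeq2) and a median of 0.08. The list as a whole, with or without a member, had 14 higher and 1 lower of 78 tested, so most of its rises were at genes without a promoter member. MRPL21, MRPL12, MRPL39 and MRPL38 had changes of 0.10 to 0.21 that did not pass. At MRPL39 the OCT4 and YY1 summits lay 1 bp apart in both replicates. Splicing factor genes had promoter members at 44 of 85 (51.8%), with 4 higher and 10 lower of 44 and a median of -0.06, the most calls of the 3 lists. With or without a member, 6 were higher and 13 lower of 82 tested. The 4 named by their OCT4 fold, PRPF38A, HNRNPLL, HNRNPA2B1 and SF3A1 had changes of -0.07 to -0.02 that did not pass.

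Nuclear-encoded respiratory chain genes had promoter members no more often than other genes, at 19 of 87 (21.8%), with 4 higher and 0 lower of 19 tested by edgeR (9 and 0 unadjusted, 8 and 0 by DESeq2) and a median of 0.19. The whole list, with or without a member, had 30 higher of 81 tested. NDUFS7, a complex I subunit gene, rose by 0.31 (edgeR adjusted p = 0.0239), a call lost without 4 of the 6 libraries, and NDUFS6, ATP5F1E and NDUFA11 had changes of -0.13 to 0.27 that did not pass. Core histone genes had promoter members at 25 of 68 (36.8%), with 0 higher and 3 lower of 22 by edgeR (0 and 8 unadjusted, 0 and 3 by DESeq2) and a median of -0.31. The list as a whole, with or without a member, had 1 higher and 10 lower of 41 tested. H3C13, H2BC18, H2AC20 and H2BC21 did not pass. H2AC20 and H2BC21 share 1 site between their starts, and histone copies are alike in sequence, so their counts can be split between copies.

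Zinc finger genes had promoter members at 108 of 544 (19.9%), with 1 higher and 22 lower of 108 tested and a median of -0.13. ZNF589 had the highest YY1 of those named (43.90 and 54.92, with an OCT4 fold of 16.21 kept at 9.70) and fell from 101, 107 and 92.6 to 76.0, 78.2 and 78.1 CPM (log2 -0.37, SE 0.06, edgeR adjusted p = 0.00414). ZNF532 and ZNF107 fell by 0.29 and 0.32 (edgeR adjusted p = 0.0176 and 0.026), calls that were lost without 4 of the 6 libraries, and ZNF76 changed by -0.01. Over the whole list, with or without a member, 9 were higher and 71 lower of 515 tested. In each of the 10 lists, fewer promoter members had an OCT4 peak with doxycycline than had YY1 in both doxycycline libraries, for example 3 and 52 of 53 sites at cytosolic ribosomal protein genes, and 3 and 11 of 12 at core pluripotency genes.

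Genes nearest to the strongest OCT4 sites went either way. NMNAT2 had 49.8, 58.9 and 58.4 CPM without and 38.3, 40.0 and 48.5 CPM with doxycycline (log2 -0.41, SE 0.10, edgeR adjusted p = 0.0224), a call lost without 4 of the 6 libraries. DENND1B, a regulator of Rab35 with a member at its promoter too, had 14.1, 17.9 and 17.5 against 23, 24.7 and 26.8 CPM (0.57, SE 0.10, edgeR adjusted p = 0.00478). STAT3 had 290, 294 and 273 against 276, 264 and 272 CPM and did not pass, and the other genes at the highest sites were not tested, some for lack of any RNA value.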

How the data were processed

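The members and gene lists were chosen with earlier results of these data known. ChIP-seq was measured for OCT4 (2 libraries), YY1 (4) and H3K9me3 (5), and RNA in 6 libraries. For ChIP-seq the authors used TrimGalore! for adapters and BWA (MEM) for alignment to hg19, filtered on MAPQ over 10, dropped duplicates, and set a 5% FDR for peaks, deposited as 1 list a library. The caller is not named in the sources used here. The deposited peak lists give fold enrichment as a ratio, p- and q-values as −log10, and a summit. Reads with several placements were dropped by the authors, which can thin peaks in repeats. The deposited RNA files give, for each transcript, TPM and estimated counts made by kallisto.

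Peaks were overlapped by at least 1 bp in Python 3.11.15 (checked against bedtools 2.31.1), and genes and TSSs came from GENCODE v44lift37. Estimated counts were summed per gene (95.85% to 95.96% of counts placed), rounded, and tested by the quasi-likelihood method of edgeR 4.0.16 (R 4.3.3) after TMM scaling and filterByExpr, with Benjamini-Hochberg adjustment and a limit of 0.05. DESeq2 1.42.0 was an alternative. Between replicates counts differed by 7.43 to 14.74 times the counting variance. The overlaps and the fit were tested on simulated data. Samples were grouped by their labels.

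Named genes were those at the 5 promoter and 5 distal members with the highest OCT4 fold, the 5 largest rises and falls called at or within 50 kb of a member (mean of at least 1 CPM, groups not overlapping), up to 4 a gene list with a promoter member, up to 6 at members that lost both factors and gained H3K9me3, and POU5F1 and YY1. The 12 per-sample HiChIP columns match no sample label and were not used. Alternatives were other thresholds, distances, filters, scalings and left-out libraries; those for sites with SVA words were chosen after seeing the data. Sequences of sites with SVA words are not reported here.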

Additional observations from a re-analysis of the deposited data

How the results depend on the processing

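A −log10 q of at least 5 in all lists left 7025 co-bound sites, of which 37.87% were promoter sites. The promoter share was 33.55% within 500 bp, 46.79% within 2000 bp, 49.99% with every transcript's TSS and 33.84% with protein-coding genes only. OCT4 retention was 29.0% with doxycycline peaks at a −log10 q of at least 5, 31.63% with the summit covered and 45.46% over members with a −log10 q of at least 5, and YY1 retention was 92.32% with the stricter doxycycline peaks and 85.47% with the summit covered. The difference in H3K9me3 sites was -62 with sites extended by 500 bp and ran from -1.5 to 108.5 when 1 library was left out. The cause of these shifts was not tested.

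When 1 RNA library was left out, promoter calls ran from 387 to 978 and distal calls from 223 to 437, around 829 and 406. Other settings gave 682 to 999 and 377 to 470. The labels do not say whether the replicate numbers pair the samples. Correlations of same-numbered deviations were 0.13, 0.08 and -0.00, and those of other pairs ran from -0.13 to 0.06, which does not settle it. With a replicate block there were 999 promoter and 470 distal calls, and 42 genes lower at sites with SVA words. The 39 lower genes there were 31 to 42 under every alternative run, with at most 1 higher. The gain of 151 H3K9me3 sites ran from 143 to 159.5. Most values of single named genes kept their call (560 the same, 26 weaker, 22 stronger, over genes and settings). The depth of the peak lists is unknown, and OCT4 had 1 library in each condition.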
